A study of Rattus norvegicus with 6 samples.

Results

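The smooth muscle contractile genes Acta2, Actg2, Cnn1, Tagln, Lmod1, Smtn, Myh11, Mylk, Des and Synm were followed in the colons of S.LEW congenic and S rats. A probe was assigned to a gene through its RefSeq accession, which gave 16 probes for the 10 genes out of 23997 probes in the deposited table, with 2 probes for each of 6 genes and 1 probe for each of 4. All 16 probes were well above background on all 6 arrays, so that no member was lost to a filter on dim signals. In every smooth muscle cell, filaments of actin and of a smooth muscle myosin slide past each other when myosin light chain kinase, switched on by calcium and calmodulin, phosphorylates the regulatory light chain of myosin. Proteins bound to the actin filament tune this cycle, and intermediate filaments of desmin and synemin tie the contractile apparatus to dense bodies and to the cell membrane. In the colon these cells form the circular and longitudinal layers of the muscularis propria, which propel the contents, as well as the thin muscularis mucosae and the walls of blood vessels.

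All 6 rats were males that had received azoxymethane (AOM), a carcinogen that induces colon tumors, at 15 mg per kg by intraperitoneal injection once a week for 2 weeks from 6 weeks of age, were kept on a diet of 0.3% NaCl, and were 30 weeks old at harvest. The 3 S rats (S1, S2 and S3) were inbred Dahl salt-sensitive rats (SS/Jr), and the 3 congenic rats (C1 to C3) were of the strain S.LEW(10)x12x2x3x5, in which a short Lewis segment of chromosome 10 replaces that of the S rat, so that both strains share the S background, the carcinogen and the diet. Each rat had its own single-color Agilent array, and the comparison asked which transcripts differ between the strains after AOM. No rat without AOM was analysed here, and the sources used here do not say how much of the muscle layer or of tumor the RNA held. All values are log2 signals that the authors had quantile-normalized, a step that gives each array the same distribution, and a log2 fold change is the mean of the congenic rats minus that of the S rats.

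The arrays did not fall apart by strain alone. Over the 23997 probes the array of S2 had a Pearson correlation of 0.967 to 0.976 with the congenic arrays, against 0.900 with S1 and 0.937 with S3. S1 and S3 correlated at 0.980. The difference between the strains at each member is therefore also given without S2, and without S1, the lowest of the S rats at every member. The labels place all 3 among the S rats. As a check of the tissue, all 12 markers of the colon epithelium with a probe in the table, among them Cdx2, Vil1 and Krt20, were well above background on all 6 arrays. The scanner headers gave 2 scans, with C1 and the 3 S rats in scan 1 and C2 and C3 in scan 2, and the median background-corrected intensity before normalization was 594 in S1, 445 in S3 and 219 in S2, against 214 to 291 in the congenic arrays. In bulk tissue, fewer smooth muscle cells and less of a transcript in each cell cannot be told apart.

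At none of the 10 genes did every congenic rat exceed every S rat. All 10 were lower in S1 and in S3 than in any congenic rat, while S2 stood within or above the range of the congenic rats. Acta2, smooth muscle alpha-actin, is the actin of vascular and visceral smooth muscle and also of myofibroblasts. Its log2 signal was 15.56, 15.38 and 15.75 in C1 to C3 and 13.63, 15.83 and 14.50 in S1 to S3. S1 was lowest, S3 next, and S2 the highest of all 6 rats. The means were 15.57 ± 0.19 (SD, n = 3) for congenic and 14.65 ± 1.11 (SD, n = 3) for S rats, a log2 fold change of 0.91 ± 0.54 (SE; limma, adjusted p = 0.469), and the log2 fold change was 1.50 without S2 and 0.40 without S1. Actg2, smooth muscle gamma-actin, is the chief actin of the gut muscle. The brighter of its probes read 17.53, 17.56 and 17.62 in C1 to C3 and 16.19, 17.62 and 17.17 in S1 to S3. The dimmer probe read 17.01, 17.12 and 17.29 in C1 to C3 and 15.44, 17.19 and 16.51 in S1 to S3. Both probes put S1 and S3 below every congenic rat and S2 among or level with them. The log2 fold changes were 0.58 ± 0.37 (SE; limma, adjusted p = 0.497) and 0.76 ± 0.44 (SE), with 0.89 and 1.16 without S2 and 0.17 and 0.29 without S1.

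**Figure D1:**
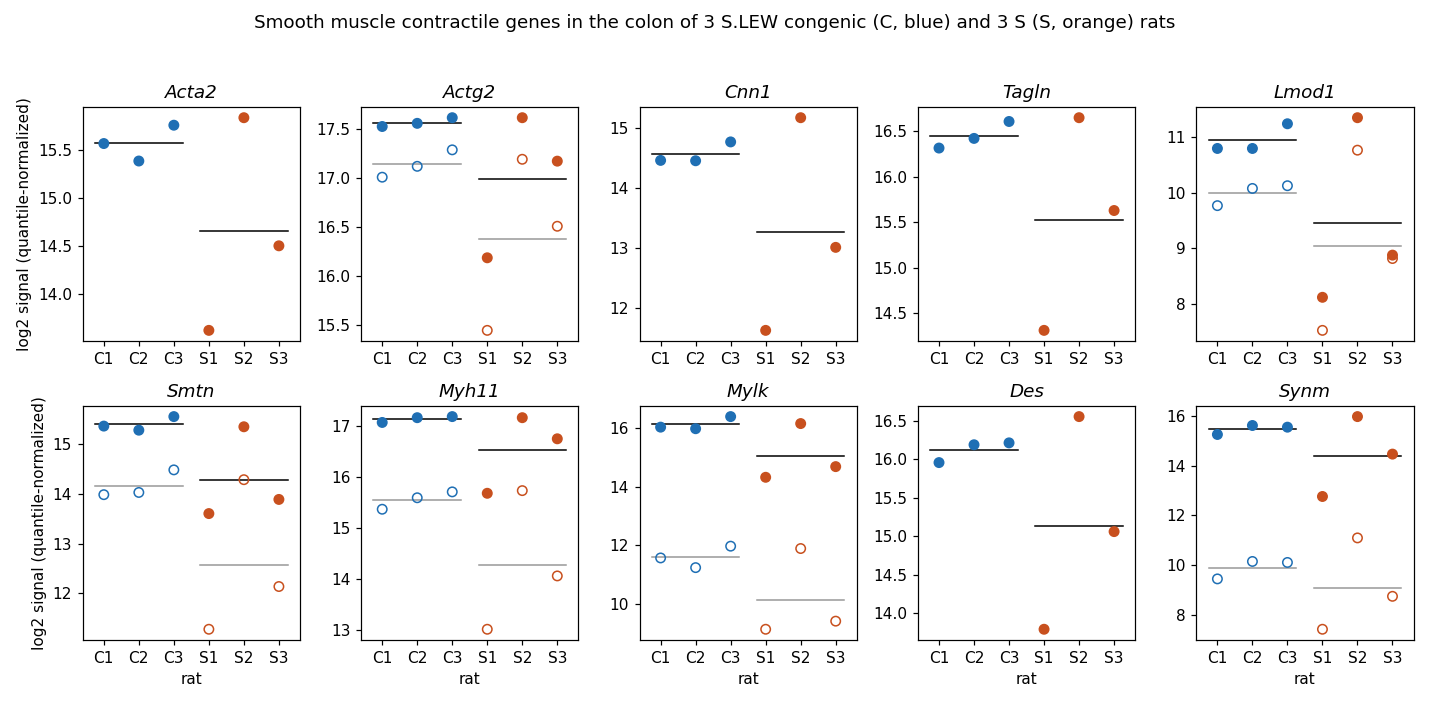
Log2 signal (quantile-normalized, vertical axes) of each smooth muscle contractile gene in the 3 S.LEW congenic rats (C1 to C3, blue) and the 3 S rats (S1 to S3, orange), with filled points for the brightest probe of a gene, open points for its dimmer probe and horizontal lines for the strain means. In every panel S1 is the lowest point, S3 the next, and S2 lies within or above the congenic points.

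The genes of the actin-bound proteins had the same order of rats. Cnn1, calponin, binds actin and slows the cycling of myosin on it. Its log2 signal was 14.47, 14.46 and 14.77 in C1 to C3 and 11.63, 15.18 and 13.02 in S1 to S3. S2 was the highest rat and stood 11.7-fold above S1, and the S rats had a mean of 13.27 ± 1.79 (SD, n = 3) against 14.57 ± 0.18 (SD, n = 3). Its log2 fold change came to 1.29 ± 0.83 (SE; limma, adjusted p = 0.499), with 2.24 without S2 and 0.47 without S1. Tagln, transgelin or SM22, is an actin-binding protein of the same family fold as calponin. It read 16.31, 16.42 and 16.60 in C1 to C3 and 14.31, 16.65 and 15.63 in S1 to S3, again with S1 and S3 below the congenic rats and S2 above them. The strains differed by a log2 fold change of 0.92 ± 0.56 (SE; limma, adjusted p = 0.482), with 1.47 without S2 and 0.31 without S1.

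Lmod1, leiomodin, nucleates actin filaments in smooth muscle. Its brighter probe read 10.79, 10.79 and 11.24 in C1 to C3 and 8.12, 11.34 and 8.88 in S1 to S3. Its dimmer probe read 9.77, 10.07 and 10.12 in C1 to C3 and 7.52, 10.76 and 8.82 in S1 to S3. At both probes S2 lay above all congenic rats, and S1 and S3 below all of them. The brighter probe gave a log2 fold change of 1.49 ± 0.79 (SE; limma, adjusted p = 0.441) and the dimmer one 0.95 ± 0.76 (SE), and the values were 2.44 and 1.82 without S2 and 0.83 and 0.20 without S1. Smtn, smoothelin, associates with the actin filaments of contractile smooth muscle. Its brighter probe read 15.36, 15.28 and 15.55 in C1 to C3 and 13.60, 15.35 and 13.89 in S1 to S3. Its dimmer probe read 13.98, 14.03 and 14.48 in C1 to C3 and 11.28, 14.29 and 12.14 in S1 to S3. Here S2 stayed within the range of the congenic rats, and the brighter Smtn probe had the lowest unadjusted p of the members, 0.0481 with limma. The brighter probe gave a log2 fold change of 1.12 ± 0.46 (SE; limma, adjusted p = 0.383), or 2.17-fold, and the dimmer one 1.60 ± 0.73 (SE; limma, adjusted p = 0.403), or 3.03-fold. Without S2 they were 1.65 and 2.46, and without S1 0.78 and 0.95.

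Myh11, the heavy chain of smooth muscle myosin, is the motor of the contractile apparatus. The brighter probe read 17.06, 17.15 and 17.17 in C1 to C3 and 15.67, 17.15 and 16.74 in S1 to S3. The dimmer probe read 15.36, 15.58 and 15.70 in C1 to C3 and 13.01, 15.72 and 14.05 in S1 to S3. Both had S1 lowest and S3 next, with S2 inside the congenic range at the brighter probe and above it at the dimmer one. The log2 fold change was 0.61 ± 0.38 (SE; limma, adjusted p = 0.49) at the brighter and 1.29 ± 0.65 (SE) at the dimmer probe, with 0.92 and 2.02 without S2 and 0.18 and 0.66 without S1. Mylk encodes myosin light chain kinase, and the locus also yields a nonmuscle long form and telokin. Its brighter probe read 16.04, 15.99 and 16.40 in C1 to C3 and 14.33, 16.16 and 14.69 in S1 to S3. Its dimmer probe read 11.57, 11.24 and 11.97 in C1 to C3 and 9.13, 11.89 and 9.40 in S1 to S3. S1 and S3 lay nearer to each other than to any congenic rat, and S2 lay within the congenic range at both probes. The log2 fold changes were 1.08 ± 0.48 (SE; limma, adjusted p = 0.397) and 1.45 ± 0.73 (SE), with 1.64 and 2.32 without S2 and 0.72 and 0.94 without S1.

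The intermediate filament genes also had S1 lowest and S3 next. Des, desmin, forms the intermediate filament of muscle cells. Its log2 signal was 15.96, 16.19 and 16.21 in C1 to C3 and 13.79, 16.55 and 15.06 in S1 to S3. S2 was highest, S1 stood 6.76-fold below it, and the log2 fold change between the strains was 0.98 ± 0.65 (SE; limma, adjusted p = 0.506), with 1.69 without S2 and 0.31 without S1. Synm, synemin, copolymerizes with desmin and links it to the membrane. Its brighter probe read 15.25, 15.61 and 15.54 in C1 to C3 and 12.76, 15.97 and 14.46 in S1 to S3. The dimmer probe read 9.45, 10.15 and 10.11 in C1 to C3 and 7.42, 11.09 and 8.75 in S1 to S3. S2 exceeded every congenic rat at both probes. The log2 fold changes were 1.07 ± 0.75 (SE; limma, adjusted p = 0.523) and 0.81 ± 0.88 (SE), with 1.86 and 1.82 without S2 and 0.25 and -0.02 without S1. The dimmer Synm probe was the only one of the 16 whose difference changed sign when a single rat was left out.

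Over the 16 probes the log2 fold change ranged from 0.58 at the brighter Actg2 probe to 1.60 at the dimmer Smtn probe, or from 1.49-fold to 3.03-fold higher in the congenic rats, with adjusted p values from limma between 0.383 and 0.662. Taking the brightest probe of each gene, the median over the 10 genes was 1.03, against 0.01 over all probes. At the cut-offs of the study, an unadjusted p under 0.05 and a 2-fold change, 1 of the 10 genes (Smtn) was called higher in the congenic rats, where 3.23% of all probes were, and none was called lower, where 2.34% were. The call of Smtn was lost with the scan as a block, within scan 1, with scaling to the 75th percentile, without the filter on low signals, with the methods' t-test, and without any single rat other than S2. After Benjamini-Hochberg adjustment neither any member nor any other probe passed 0.05 with limma (0.0% of probes), although 3115 probes had an unadjusted p under 0.05. The methods' t-test called no member in either direction, where it called 2.15% of all probes higher and 0.742% lower, and its lowest unadjusted p among the brightest probes was 0.11. In a two-sided exact permutation test of the 3 rats against 3 at each probe, p lay between 0.20 and 0.60, where the smallest possible value is 0.10. At none of the 16 probes did the strains stand apart, whereas 12.4% of all probes had every congenic rat above every S rat and 5.33% had every one below.

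Leaving out S2 changed the calls. S2 was singled out from the values of these same arrays, and at all 16 probes it lay within or above the congenic range. Leaving it out therefore had to raise every difference, and the counts without it are no separate test. Without S2, limma called 8 of the 10 genes higher in the congenic rats at the same cut-offs, where 9.99% of all probes were, and none lower, where 7.19% were, with a median log2 fold change of 1.64. By their brighter probes, the genes short of 2-fold were Actg2 and Myh11, with 0.89 and 0.92. Their dimmer probes were past 2-fold, with 1.16 and 2.02. The size at these 2 brighter probes also depended on the scaling. With all 6 arrays scaled to the 75th percentile the log2 fold changes were 1.004 for Actg2 and 0.93 for Myh11, rather than 0.58 and 0.61. At an adjusted p under 0.05, 6 of the 10 genes and 11 of the 16 probes were then higher, where 12.5% of all probes were. These fits assume that 2 S rats vary as the remaining arrays do. S1 was the lowest rat at all 16 probes, so that leaving it out had to lower every difference. Without S1 the median fell to 0.36, and without S3 it was 0.93, with no member called in either case, nor when any congenic rat was left out. Within scan 1, where C1 alone stands for the congenic strain and is assumed to vary like the S rats, the log2 fold changes ran from 0.36 to 1.43 with no member called (1.85% of all probes were called higher and 0.779% lower), and the lowest unadjusted p from limma was 0.236. Scan 2 held congenic rats alone, so that with the scan as a block in the fit of all 6 arrays the difference is that same contrast of C1 with the S rats, with the same values and another error. No member was called in it, where 2.3% of all probes were called higher and 0.946% lower.

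**Figure D2:**
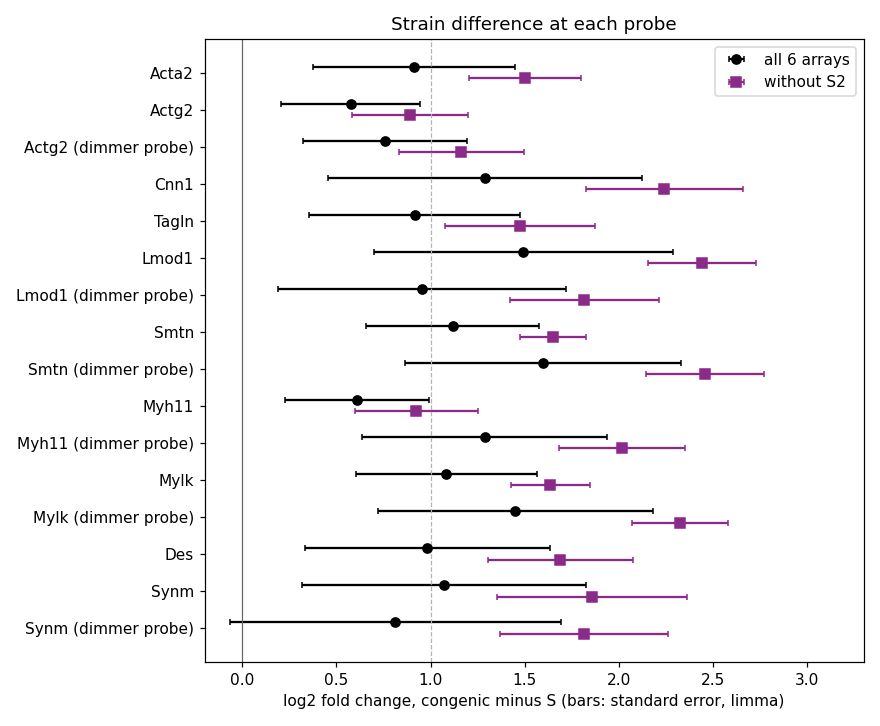
Log2 fold change (congenic minus S, horizontal axis) at each of the 16 probes, with standard errors from limma as bars, for all 6 arrays (black circles) and without S2 (purple squares). The dashed line marks a 2-fold change, and every value is positive and lies further to the right without S2.

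The spread lay among the S rats. At all 16 probes the S rats had a wider range than the congenic rats, as did 70.6% of all probes, and the range was 1.43 to 3.67 among the S rats and 0.09 to 0.73 among the congenic rats on the log2 scale. The corresponding medians over all probes were 0.70 and 0.42. S2 exceeded S1 by 2.70-fold at the brighter Actg2 probe to 12.7-fold at the dimmer Synm probe. It was at least 2-fold above S1 at all 16, where 16.9% of all probes were, and at least 4-fold above at 11 of the 16 probes, where 4.31% of all probes were. The order of S1 lowest and S3 next, with S2 and every congenic rat above both, held at all 16 member probes and at 19.0% of all probes, and S2 was above every congenic rat at 9 of the 16 and at 23.9% of all probes. Since S1, S2 and S3 were in the same scan, these differences do not cross scans. With each array scaled to its 75th percentile instead, the difference of S2 over S1 on the log2 scale was 2.54 rather than 1.43 at the brighter Actg2 probe and 2.41 rather than 1.48 at the brighter Myh11 probe, and over the 16 probes it ran from 2.004 to 3.74.

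Other genes of the contractile apparatus were read by the same cut-offs, at which 3.23% of all probes were called higher, and by a looser pattern than the members' order, with S1 and S3, in either order, below every congenic rat and S2 not below them all, as 19.9% of all probes had. Of 17 other contractile and filament genes in the table, 1 was called higher and none lower, with a median log2 fold change of 0.90, and 15 had the pattern. The gene called was Fbxo32, which encodes a ubiquitin ligase of muscle and not a contractile or filament protein. It read 8.32, 7.89 and 8.52 in C1 to C3 and 6.61, 8.12 and 6.87 in S1 to S3. Myl9, the regulatory light chain that myosin light chain kinase phosphorylates, read 15.74, 15.91 and 16.04 in C1 to C3 and 13.53, 16.09 and 14.87 in S1 to S3, and the smooth muscle tropomyosin Tpm2 read 16.27, 16.32 and 16.38 in C1 to C3 and 14.31, 16.43 and 15.23 in S1 to S3. Tpm4, a tropomyosin also made by nonmuscle cells, ran the other way, with 12.26, 12.65 and 12.43 in C1 to C3 and 13.35, 12.66 and 13.10 in S1 to S3, and had a log2 fold change of -0.58. Of 18 genes of contraction signalling, 1 was called higher and 12 had the pattern, with a median of 0.87. The gene called was Tacr2, the neurokinin receptor through which tachykinins contract gut muscle. It read 12.55, 12.87 and 12.81 in C1 to C3 and 10.14, 12.29 and 10.64 in S1 to S3, so that every congenic rat was above every S rat, including S2. Its log2 fold change was 1.72 ± 0.54 (SE; limma, adjusted p = 0.329). Of 9 genes of the membrane complexes, 1 was called higher and 8 had the pattern, with a median of 1.01. Sgca, alpha-sarcoglycan of the dystrophin complex, read 8.16, 8.11 and 8.55 in C1 to C3 and 6.11, 7.71 and 6.32 in S1 to S3, again with every congenic rat above S2, and had a log2 fold change of 1.56 ± 0.44 (SE; limma, adjusted p = 0.294). Without S2, 13 of the 17, 12 of the 18 and 9 of the 9 were called higher, where 9.99% of all probes were. Such a rise was not confined to these lists. Among those taken up below, 5 of 7 enteric neuron and 4 of 7 pericyte markers were called higher without S2. So were 1 of 7 regulators, 4 of 14 paralogs, 2 of 8 fibroblast, 2 of 12 epithelial and 0 of 6 lymphoid genes.

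Regulators of these genes were followed as well. Serum response factor (Srf) binds CArG boxes together with its coactivator myocardin (Myocd) to switch on smooth muscle genes. Of 7 transcriptional regulators in the table none was called, 5 had the looser pattern, and the median log2 fold change was 0.35. Srf read 13.26, 13.45 and 13.74 in C1 to C3 and 12.66, 13.74 and 12.81 in S1 to S3, and S2 was 1.08 above S1 on the log2 scale. Myocd read 8.12, 7.86 and 7.71 in C1 to C3 and 7.47, 8.53 and 7.48 in S1 to S3, with S1 and S3 lowest and S2 highest, and a log2 fold change of 0.07 ± 0.33 (SE; limma, adjusted p = 0.923).

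Promoter windows of 7 of the 10 members were found in the RefSeq table of the GRCr8 assembly, as the 250 bases before and 50 after an annotated start. Tagln, Myh11 and Lmod1 had none there and were not searched. A CArG box, searched as CC, 6 bases that are A or T, and GG, which reads alike on both strands, was in none of the 7 and in 1.64% of the 33469 promoters of that length. With 1 of the 6 middle bases allowed to be G or C, a form chosen after the strict search, it was in 1 of the 7 and in 9.42% of all, and 2 such boxes stood in 0.846% of all. The promoter with 2 was that of Acta2, at chr1:241172504-241172753 (GRCr8, minus strand) for the 250 bases before the start, shown because no other member promoter in the table held a box. The boxes are in capitals and begin 134 and 84 bases before the start.
Acta2: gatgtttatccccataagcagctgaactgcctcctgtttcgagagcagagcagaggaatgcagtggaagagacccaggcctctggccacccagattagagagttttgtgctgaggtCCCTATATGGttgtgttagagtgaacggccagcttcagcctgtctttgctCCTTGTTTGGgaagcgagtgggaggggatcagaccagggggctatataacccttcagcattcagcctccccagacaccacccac
A match describes letters only, and the arrays hold no measure of binding. An absence covers only these short windows at the annotated starts, since sequence beyond them was not searched. In the Actg2 window the 50 bases after the annotated start already hold the beginning of its coding sequence. That window may therefore not be the Actg2 promoter, and its lack of a box says nothing of one.

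Of 14 paralogs of the members in the table, 6 had that looser pattern and none was called in either direction, with a median log2 fold change of 0.13. Actb, the beta-actin of the cytoskeleton, read 16.26, 15.84 and 16.18 in C1 to C3 and 16.43, 16.04 and 15.51 in S1 to S3, and Actg1, cytoplasmic gamma-actin, read 16.57, 16.50 and 16.48 in C1 to C3 and 16.74, 16.41 and 16.56 in S1 to S3. S1 was the highest rat for both, whereas it was the lowest for Acta2 and Actg2. Myh9, a nonmuscle myosin heavy chain, read 10.46, 9.83 and 9.88 in C1 to C3 and 11.003, 9.95 and 10.12 in S1 to S3, also with S1 highest, while the nonmuscle Myh10 read 7.55, 7.59 and 8.26 in C1 to C3 and 5.87, 8.14 and 6.92 in S1 to S3, with S1 lowest and S3 next as for Myh11. Tagln2, a transgelin of other cells, read 12.42, 12.41 and 12.14 in C1 to C3 and 12.12, 12.17 and 12.23 in S1 to S3 with no such order. Vim, the intermediate filament of mesenchymal cells, read 11.42, 11.76 and 11.97 in C1 to C3 and 12.32, 11.74 and 12.22 in S1 to S3, with S1 and S3 highest. The sarcomeric actins Acta1 and Actc1, close to Acta2 in sequence, had log2 fold changes of 0.42 and 0.69 with S2 above S1 by 2.35 and 1.32, and how far the actin probes read each other was not tested.

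**Figure D3:**
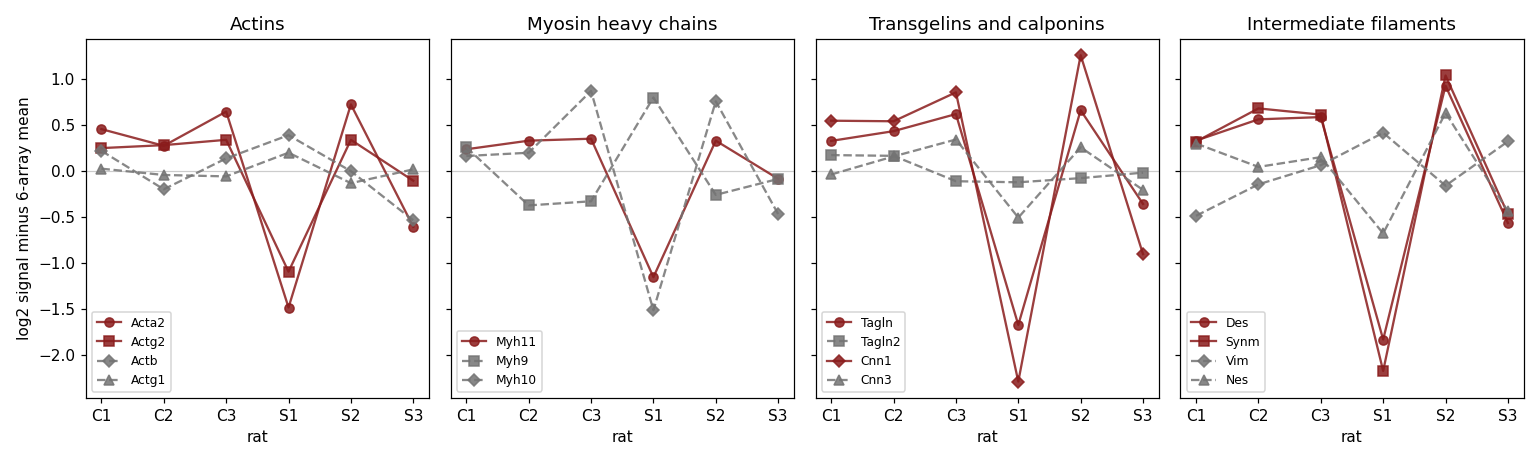
Log2 signal minus the mean over the 6 arrays (vertical axis) in each rat for member genes (red, solid) and paralogs (gray, dashed), the lines only joining the points of a gene. The members dip in S1 and peak at or near S2, while Actb, Actg1, Myh9 and Vim are highest in S1.

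Markers of other cell types moved with the members in part, as seen when each gene is centred on its own mean over the 6 arrays and the list averaged for each rat. The 10 members stood at 0.40, 0.45 and 0.66 in the congenic rats, -1.63 in S1, 0.75 in S2 and -0.63 in S3. Lymphoid markers ran opposite, at -1.76, -1.69 and -1.70 in the congenic rats, 3.49 in S1, -1.63 in S2 and 3.29 in S3, over 6 of the 9 lymphoid genes on the array, of which 5 were called lower in the congenic rats. Cd3e, Cd2 and Cd79b were on the array without a value in the table. The mean log2 level of these 6 was 7.12 to 7.19 in the congenic rats and 7.25 in S2, against 12.37 in S1 and 12.17 in S3. Log2 fold changes among the genes called were -3.81 for Cd37, well above background on 5 of the 6 arrays, -3.43 for the T cell kinase Lck and -2.31 for Cd3g, a chain of the T cell receptor complex. S1 and S3, the rats low in contractile genes, were thus those high in lymphoid genes, and S1 and S3 also had the highest median intensities. The part of lymphoid tissue or of array intensity in the result was not tested.

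Enteric neuron markers followed the members, at 0.47, -0.21 and 1.01 in the congenic rats, -1.39 in S1, 0.82 in S2 and -0.71 in S3, with the pattern in 6 of 7 and none called. Pericyte markers did so only on average, at 0.25, 0.38 and 0.60 in the congenic rats, -1.07 in S1, 0.35 in S2 and -0.51 in S3. The pattern was in 4 of 7, and 6 of the 7 had a positive log2 fold change. Pdgfrb ran the other way at -0.14, and Kcnj8 had 0.11. Rgs5, a regulator of G protein signalling in pericytes and vascular muscle, was called higher. It read 12.69, 12.48 and 13.48 in C1 to C3 and 10.42, 11.42 and 10.33 in S1 to S3, so that all congenic rats exceeded all S rats. Its log2 fold change was 2.16 ± 0.40 (SE; limma, adjusted p = 0.207). Fibroblast markers, at -0.06, -0.04 and 0.71 in the congenic rats, -0.64 in S1, 0.49 in S2 and -0.46 in S3, had the pattern in 5 of 8 and none called. The colon epithelium did not split the S rats in the same way, at 0.64, 0.50 and 0.05 in the congenic rats, -0.60 in S1, -0.21 in S2 and -0.39 in S3. Its 12 markers had a median log2 fold change of 0.80, with Vil1 at 1.01 and Slc26a3 at 1.07 called higher, the pattern in 2 of the 12, and S2 on the side of S1 and S3. Skeletal muscle markers averaged -1.003, -0.48 and -0.58 in the congenic rats, -0.10 in S1, 1.26 in S2 and 0.90 in S3. Only 5 of these 9 were well above background on all 6 arrays, and the genes did not share that order. S2 was the highest rat for Acta1, Myh2, Ckm and Tnnc2, S1 for Myh1, Tnnt3, Mybpc1 and Myl11, and S3 for Actn3. Of the 9, Tnnt3 was called lower, at -1.39, and so were Myh1 and Mybpc1, which none of the 3 congenic arrays measured well above background and which passed the filter through the S rats, so that no fold is given. Of 6 macrophage markers Cd163 and Mrc1 were called higher, at 1.85 and 1.03, and Csf1r lower, at -1.42, and of 5 adipocyte markers Adipoq and Cfd were called higher, at 1.91 and 1.57. The part of these cell types in the members' levels was not tested.

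**Figure D4:**
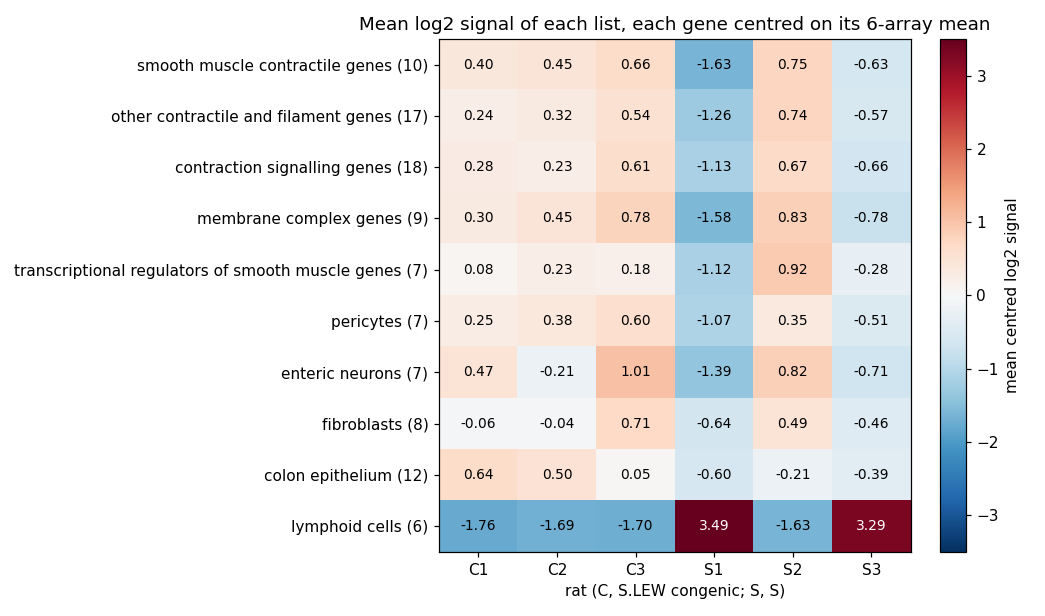
Mean log2 signal of each gene list in each rat, every gene centred on its own mean over the 6 arrays, with the number of genes in parentheses and red for above and blue for below that mean. The contractile, signalling and membrane lists are lowest in S1, next lowest in S3 and above their mean in S2. So are the regulator, pericyte, enteric neuron and fibroblast lists. The lymphoid list is high in S1 and S3 alone.

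Outside the members, the genes whose profile was most like the members' mean profile were Col5a1, Ntrk3, Flna, Tpm2 and Camk2b, out of 12674 named probes well above background on all arrays. Likeness was the root mean square difference of the centred log2 values over the 6 rats, which was 0.0572 for Col5a1, a fibrillar collagen chain, 0.0743 for Ntrk3, a neurotrophin receptor, 0.0814 for Flna, filamin A, 0.0892 for Tpm2 and 0.0907 for Camk2b, a calmodulin-dependent kinase, against a median of 0.855 over all candidates. Among the members themselves the same measure ran from 0.0974 for Acta2 to 0.443 for the dimmer Synm probe. Col5a1 read 11.65, 11.84 and 12.03 in C1 to C3 and 9.62, 12.04 and 10.65 in S1 to S3, and Ntrk3 read 8.34, 8.37 and 8.77 in C1 to C3 and 6.42, 8.66 and 7.34 in S1 to S3. The rats fell in the members' order in both, which the choice by likeness to that profile on the same arrays fixed in advance.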

How the data were processed

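Expression was measured in the colon of 3 S.LEW congenic and 3 S rats, with 1 single-color (Cy3) Agilent Rat 4x44K v3 array per rat. Per the file headers and the labels, images were read with Agilent Feature Extraction 11.0.1.1, and the deposited scanner files hold background-corrected intensity values that are not normalized between arrays, with 0 or 1 flags (other values) set by the scanner software. The authors quantile-normalized the values in GeneSpring, retained probes with detection on 3 or more of the 6 arrays, and deposited the resulting log2 values for 23997 probes, which were used here. These correlated at 0.9999 or more on each array with log2 intensities quantile-normalized here from the scanner files. Their median was 8.55 to 8.57 on each array, and no gene centring was found. No spot was saturated, and precision is limited by the number of arrays. Whether rats of a strain shared litters is not stated.

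The congenic and S strains were set against each other by limma (3.58.1, under R 4.3.3), using lmFit and eBayes without covariates over all probes, with Benjamini-Hochberg adjustment over all of them. Of 30367 probes on the array, 18005 were named through RefSeq accessions of GRCr8. The brightest probe stood for a gene in counts and medians, and plots used matplotlib 3.10.9. On simulated data that gave both strains the spread of the congenic arrays, the fit recovered the known changes. It was not tried with the wider spread that the S rats had at the members. The members, the gene lists and the tests were chosen with earlier results of these data known. Named were all members, up to 4 called genes of each other list, paralogs, and the 5 genes nearest in profile to the members. Myl9, Tpm4, Srf and Myocd were named after their values were seen, and 1 gene that the rule names is not reported here. Alternatives were other scalings, background correction, filters, the methods' t-test, array weights (gene by gene, since the default did not converge), scan and replicate blocks, and leaving out each rat. Per the paper, each cage held an S rat and a congenic rat. The labels do not say which rats shared a cage, so the main fit used no pairing. Endothelial, macrophage, glial, Cajal cell and adipocyte lists were also computed, and their median log2 fold changes were -0.27, -0.24, 0.46, 0.62 and 0.92.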

Additional observations from a re-analysis of the deposited data

How the results depend on the processing

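The log2 fold change of the brightest probe of every member stayed above 0 under all alternatives. The median over the members, 1.03 with all rats, ranged from 0.36 without S1 to 1.64 without S2 when each rat was left out, and was 0.998 with scaling to the 75th percentile and 0.88 with the scan as a block. The number of member genes called, 1 in all, was 0 with scaling to the 75th percentile, no filter, the methods' t-test, the scan as a block, scan 1 alone or the replicate block, 7 with array weights, which gave S2 a weight of 0.159 and S3 one of 4.90, and 0 to 8 with a rat left out. Where the count was 0, the call lost was that of Smtn. Of all probes, those called higher numbered 776, and 360 with normexp on the median signal (added after the data were seen, since the scanner files hold no mean signal), 515 with the methods' t-test, 2000 with array weights and 443 in scan 1 alone. Those called lower numbered 562, and 348 with the filter on all 6 arrays, 178 with the methods' t-test, 1649 with array weights, 227 with the scan as a block and 187 in scan 1 alone. With a rat left out they ranged from 477 to 2397 higher and from 192 to 1725 lower, the largest counts without S2. At an adjusted p under 0.05 there were 0 probes, 1 with the 75th percentile, 8549 with array weights and 0 to 5553 with a rat left out. With the replicate block 794 probes were called higher and 744 lower. Deviations of same-numbered rats from their strain means correlated at -0.02, -0.13 and -0.06. With so few rats, these values cannot tell whether same-numbered rats shared a cage. The planned normexp on the mean signal was not run. The cause of these changes was not tested.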
